A study of Homo sapiens with 6 samples.

Results

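The 40 genes described here encode the core autophagy machinery and its cargo receptors. They were chosen by name, for what their products are known to do, from the 60671 gene rows of a read count table. All 40 were found by gene symbol, and all 40 passed the filter on low counts. They comprise 5 genes of the ULK initiation complex, 7 of the class III PI3-kinase complex and its regulators, 6 that act on the phagophore membrane, 10 conjugation enzymes and ATG4 proteases, 5 ATG8 proteins, 5 cargo receptors and 2 inducible modulators. RNA was sequenced from 3 established lines of human non-small cell lung cancer, A549, HCC827 and H1975, after 48 h with 10 µg/mL AL-X or with the solvent DMSO alone. AL-X is 9α,11α-dihydroxy-kaurenoic acid, a derivative of the plant diterpenoid kaurenoic acid. The genotype of every library was labelled wild type (WT), a label that does not describe the mutations a tumour line carries. There was 1 library per line and treatment, 6 in all, so no line had a replicate, and nothing in the labels says how many cultures a library stands for.

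Autophagy encloses cytoplasm in a double membrane, the autophagosome, and delivers it to the lysosome. The ULK kinase complex starts the process under the control of the nutrient kinases mTORC1 and AMPK, a class III PI3-kinase complex marks the growing membrane, and a ubiquitin-like cascade attaches ATG8 proteins such as LC3 to its lipids. Receptors such as p62 (SQSTM1) tie ubiquitin-tagged cargo to the ATG8 proteins and are themselves degraded with it. The level of an mRNA gives no measure of how fast the process runs.

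The sequence before the RefSeq start site is shown for MAP1LC3B and ATG101, which were the members at least 2-fold higher with AL-X in all 3 lines, and for ATG3, the conjugation enzyme with the highest fold over the lines. Each is the 250 bases before the RefSeq start on GRCh38.p14, 5′ to 3′ on the strand of the gene. MAP1LC3B lies at chr16:87392086-87392335 on the plus strand, ATG101 at chr12:52069728-52069977 on the plus strand, and ATG3 at chr3:112561963-112562212 on the minus strand. Capitals mark a match to TGACNNNGC, the core of the antioxidant response element, in MAP1LC3B and ATG101, and to the E-box CACGTG in ATG3.
MAP1LC3B: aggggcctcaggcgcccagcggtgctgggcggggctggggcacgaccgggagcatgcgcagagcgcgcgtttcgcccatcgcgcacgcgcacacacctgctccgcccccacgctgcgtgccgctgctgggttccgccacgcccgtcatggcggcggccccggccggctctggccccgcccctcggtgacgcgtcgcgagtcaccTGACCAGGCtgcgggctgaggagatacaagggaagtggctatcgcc
ATG101: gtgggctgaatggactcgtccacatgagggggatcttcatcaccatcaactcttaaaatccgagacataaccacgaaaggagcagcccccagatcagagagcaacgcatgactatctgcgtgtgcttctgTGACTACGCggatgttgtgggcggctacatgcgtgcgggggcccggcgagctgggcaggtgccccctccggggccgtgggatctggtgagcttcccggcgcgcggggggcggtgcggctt
ATG3: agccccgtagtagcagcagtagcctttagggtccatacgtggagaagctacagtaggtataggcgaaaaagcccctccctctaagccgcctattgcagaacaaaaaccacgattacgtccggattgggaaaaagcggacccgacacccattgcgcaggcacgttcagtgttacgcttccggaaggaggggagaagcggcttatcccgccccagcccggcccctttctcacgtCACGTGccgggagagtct

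RefSeq promoter windows of 300 bases, 250 before the start and 50 after it, were matched for 36 of the 40 genes, with 46 windows in all. On both strands TGACNNNGC was found in 3 of these windows (6.52%), those of MAP1LC3B (46 bases before the start), ATG101 (120 bases before) and CALCOCO2, against 13.3% of all 35116 windows. CACGTG was found in 2 windows (4.35% against 7.26%), at 18 bases before and 5 bases after the start in ATG3 and at 21 bases before it in ATG14. The longer TCACGTGA, which contains CACGTG and is the E-box form of the lysosomal CLEAR element, was found only in ATG3, after the start (2.17% against 0.98%). TGACGTCA, the cyclic AMP response element, stood in GABARAPL1 and TP53INP2 (4.35% against 1.85%), and the forkhead sequence GTAAACA in DEPP1 and CALCOCO2 (4.35% against 3.42%). The composite C/EBP-ATF sequence TGATGNAA was in 0 of the 46 windows, against 3.62% of all. These matches describe letters in a window and were not tied to any measured binding.

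Library totals ran from 98139178 to 126840915 counts. Genes of the mitochondrial genome took 6.41 to 6.87% of counts with DMSO, and with AL-X 0.0201% in A549, 0.656% in HCC827 and 0.0535% in H1975. Levels are counts per 1e6 (CPM) after TMM scaling, which sets the typical gene as the reference. For A549 the scaling factor was 1.12 for the DMSO library and 0.557 for the AL-X library, and library totals as the only scaling moved the folds by a median of -1.005 log2 units in A549, -0.41 in H1975 and 0.13 in HCC827. The part of these shifts in each result was not tested beyond that second scaling. Summed epithelial markers stood at 2622 to 7229 CPM, although EPCAM was at 2.67 and 1.47 CPM and KRT19 at 4.998 and 4.62 CPM in A549. Single markers were not steady with treatment: in A549, CDH1 went from 209 CPM with DMSO to 15.6 with AL-X, and KRT7 from 953 to 2607. PTPRC and CD3E were at 0 counts in all 6 libraries. The macrophage marker CD68, also a lysosomal protein of other cells, went from 69.7 to 371 CPM in HCC827, and its part in the values of that line was not tested. In bulk RNA, fewer cells and less RNA per cell cannot be told apart.

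Across the 3 lines, no autophagy gene passed the test. The question here is which genes had a shared response in A549, HCC827 and H1975, with cell line as the blocking factor. By edgeR's quasi-likelihood test with Benjamini-Hochberg adjustment over 20344 genes, 0 of 40 genes were below 0.05, against 0.256% of all genes (0.0983% higher, 0.157% lower). The lowest adjusted p was 0.100, for MAP1LC3B. At an unadjusted p under 0.05, 11 of 40 were higher and 0 lower, against 5.48% and 10.2% of all genes. By library totals 4 of 40 were under that limit, 3 of them higher, beside 2792 of 20344 genes, 551 of them higher. With a line left out, 6 to 7 of 40 were under it, 6 of them higher in each fit. Of all genes, 1785 to 4196 were under it in those fits, 530 to 1822 of them higher. By TMM with all 3 lines, the median log2 fold of the 40 genes was 0.52, with 27 above 0 and 13 below, beside a median of -0.27 over all genes tested. DESeq2 put 3 of 40 below an adjusted p of 0.05, against 3.07% of genes higher and 7.08% lower by that tool (10.2% in all): MAP1LC3B (adjusted p = 6.1e-05), ATG101 (0.0311) and ATG3 (0.0437). Limma-voom put 2 there, MAP1LC3B (0.0026) and ATG101 (0.0497), against 3.25% of all genes (1.59% higher, 1.66% lower). Without A549, edgeR called MAP1LC3B alone, with a log2 fold of 2.55 (SE 0.59, adjusted p = 0.0321), against 0.677% of all genes in that fit (0.308% higher, 0.369% lower).

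Within a line there was no replicate and no test, so genes are described by whether they reached a 2-fold difference, and genes under 5 CPM in both libraries of a line were set aside. In A549, 15 of 39 genes (38.5%) were higher and 4 (10.3%) lower, against 30.0% and 31.4% of all genes. In HCC827, 12 of 39 (30.8%) were higher and 0 lower, against 10.7% and 17.2%. In H1975, 4 of 38 (10.5%) were higher and 4 (10.5%) lower, against 15.4% and 17.7%. The share of higher genes thus stood above the background by the most in HCC827, and below it in H1975. The genes considered had a median log2 fold of 0.58 (A549), 0.70 (HCC827) and 0.26 (H1975), beside -0.00, -0.04 and 0.07 over all genes. Of 37 genes considered in every line, 2 were at least 2-fold higher in all 3 (2.66% of all genes) and 0 lower (3.46%), while 21 were higher in all 3 by any size (23.5%) and 4 lower (21.6%). By library totals 10 of the 37 were higher in all 3 lines and 4 lower, against 15.2% and 28.6% of the same genes. Exact binomial 95% intervals given below for a line's fold cover counting error only.

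**Figure D1:**
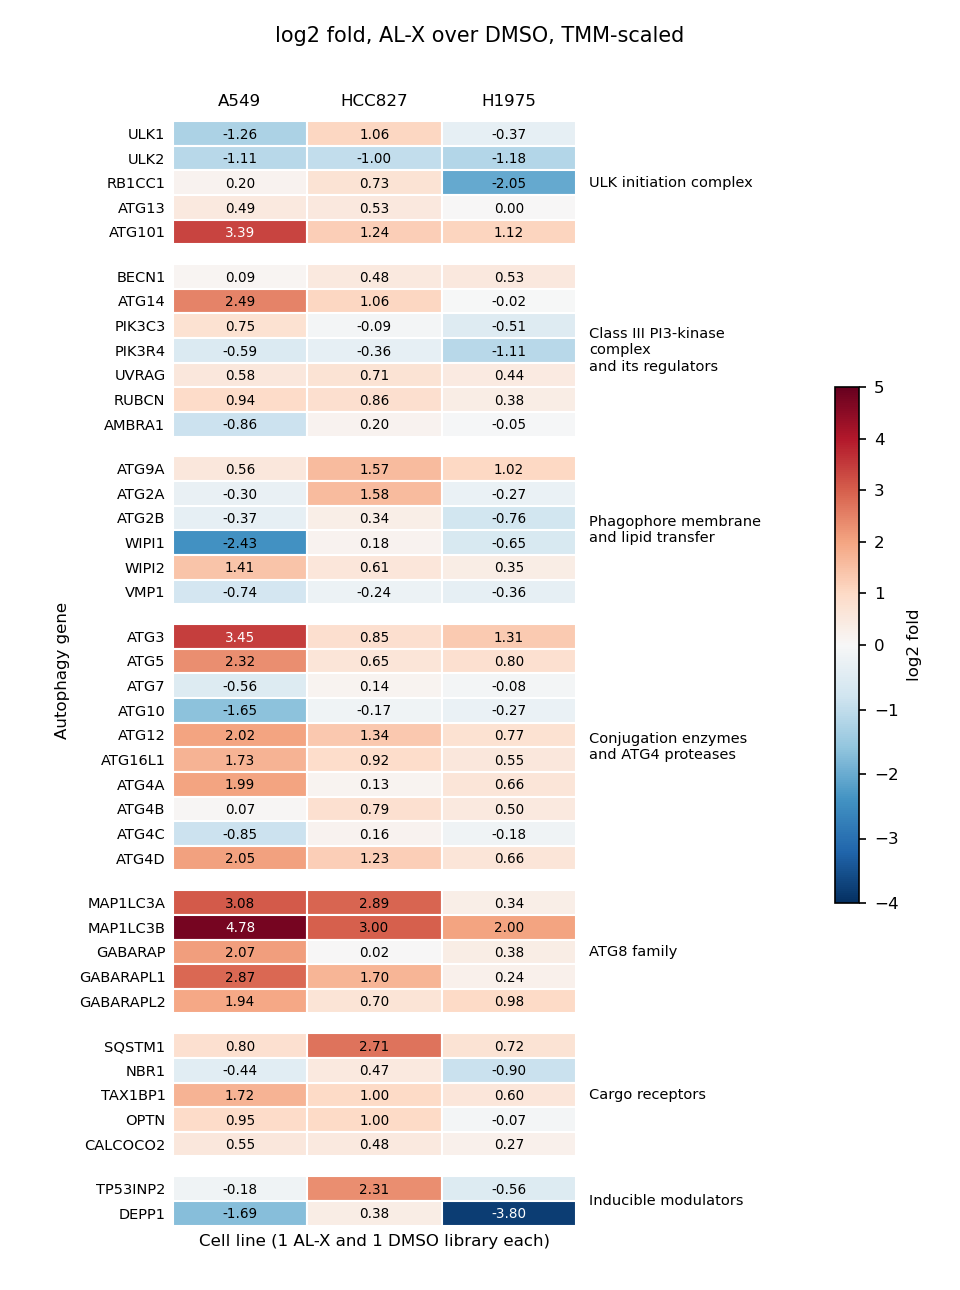
Log2 fold of AL-X over DMSO (TMM-scaled CPM, prior count 2) for the 40 genes, rows grouped by role, columns by cell line, with the value printed in each cell and red for higher, blue for lower. MAP1LC3B is the highest value of each column, at 4.78, 3.00 and 2.00, and DEPP1 in H1975 is the darkest blue at -3.80; the MAP1LC3A value of HCC827 comes from 0 counts with DMSO and depends on the prior count.

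The ULK complex did not move as a unit. Its median log2 fold over the lines was -0.20, with 2 of 5 genes above 0 and 3 below. ATG101 (ENSG00000123395, GRCh38 chromosome 12, 52069246 to 52077494, plus strand) encodes the subunit that stabilises ATG13. It stood at 31.2 CPM with DMSO and 328 with AL-X in A549, at 27.5 and 64.7 in HCC827, and at 51.7 and 113 in H1975. All 3 AL-X libraries lay above all 3 DMSO libraries. The fold was 3.39 log2 units (95% interval 3.34 to 3.44) in A549, 1.24 (1.18 to 1.29) in HCC827 and 1.12 (1.08 to 1.17) in H1975, or 1.89 over the lines (SE 0.59, edgeR adjusted p = 0.180).

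The kinases of the complex differed in pattern. ULK1 (ENSG00000177169, chromosome 12, 131894651 to 131923167, plus strand), the main initiating kinase, went from 150 to 62.7 CPM in A549, from 52.9 to 110 in HCC827 and from 46.9 to 36.3 in H1975. It was thus lower by more than 2-fold in A549 (log2 fold -1.26, interval -1.31 to -1.21) and higher by more than 2-fold in HCC827 (1.06, 1.02 to 1.10), the only one of the 40 genes to differ in opposite directions in a pair of lines. Of all genes, 3.5% did so between A549 and HCC827, 0.686% between A549 and H1975 and 1.91% between HCC827 and H1975. Over the lines its fold was -0.20 (SE 0.55, edgeR adjusted p = 0.875). ULK2 (ENSG00000083290, chromosome 17, 19770829 to 19867936, minus strand), its close relative, was lower in every line, from 37.7 to 17.5 CPM, from 9.57 to 4.78 and from 18.5 to 8.18. By TMM its folds of -1.11, -0.998 and -1.18 were nearly alike and lay next to the 2-fold limit, which HCC827 just missed. By library totals they were -2.11, -0.87 and -1.59, so the likeness depends on the scaling. The ULK2 fold over the lines was -1.10 (SE 0.55, edgeR adjusted p = 0.356). ULK1 took 79.9% of the ULK1 and ULK2 counts in A549 with DMSO and 78.2% with AL-X, 84.7 and 95.8% in HCC827, and 71.7 and 81.6% in H1975. These shares do not depend on the scaling.

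The scaffold RB1CC1 (FIP200), on which the complex assembles, stood at 109 and 125 CPM in A549, 88.0 and 146 in HCC827, and 93.2 and 22.5 in H1975. Only the AL-X library of H1975 was low, with a log2 fold of -2.05 (interval -2.11 to -1.98). ATG13, the adaptor subunit, kept within 2-fold in each line, at 0.49, 0.53 and 0.00 log2 units.

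In the class III PI3-kinase complex, 5 of 7 genes were above 0 over the lines and 2 below, with a median of 0.37. ATG14 (ENSG00000126775, chromosome 14, 55366392 to 55411858, minus strand), the subunit that directs the lipid kinase to autophagosome formation sites, had the highest fold of the group. It went from 23.5 to 132 CPM in A549, from 47.4 to 99.2 in HCC827 and from 36.2 to 35.8 in H1975. The log2 fold was thus 2.49 and 1.06 in A549 and HCC827 and -0.02 in H1975, and 1.17 over the lines (SE 0.57, edgeR adjusted p = 0.340). PIK3R4 (ENSG00000196455, chromosome 3, 130678935 to 130746829, minus strand), the VPS15 subunit that stabilises the kinase, had the lowest. It stood at 30.9 and 20.5 CPM in A549, 46.7 and 36.3 in HCC827, and 49.0 and 22.6 in H1975, and its fold over the lines was -0.69 (SE 0.48, adjusted p = 0.496). The other 5 genes stayed within 2-fold in all 3 lines. These were the kinase PIK3C3 (0.75, -0.09 and -0.51 in A549, HCC827 and H1975), the scaffold BECN1 (0.09, 0.48 and 0.53), UVRAG of the endosomal form of the complex (0.58, 0.71 and 0.44), its inhibitor RUBCN (0.94, 0.86 and 0.38) and the BECN1 partner AMBRA1 (-0.86, 0.20 and -0.05).

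The genes that act on the phagophore membrane split evenly, 3 of 6 above 0 over the lines, with a median of 0.03. ATG9A (ENSG00000198925, chromosome 2, 219219380 to 219229717, minus strand), the membrane protein whose vesicles seed the phagophore and which moves lipids between its leaflets, was at 71.1 and 105 CPM in A549, 44.0 and 131 in HCC827, and 51.3 and 104 in H1975. By TMM the 3 AL-X values lay close together and above the 3 DMSO values, which was not so by library totals. The fold over the lines was 1.05 (SE 0.47, edgeR adjusted p = 0.310), although by library totals the A549 fold of ATG9A was -0.45. An unnamed transcript, AC068946.2, lies on the same strand over 38.8% of its exonic bases, so their counts cannot be told apart with certainty. WIPI1 (ENSG00000070540, chromosome 17, 68420948 to 68457513, minus strand), a reader of the lipid that the PI3-kinase makes, was at 22.1 and 4.08 CPM in A549, 7.56 and 8.56 in HCC827, and 12.1 and 7.72 in H1975. It was low with AL-X in A549, where the log2 fold was -2.43 (interval -2.62 to -2.26), and its fold over the lines was -0.95 (SE 0.73, adjusted p = 0.530). ARSG, on the opposite strand over 24.3% of the WIPI1 exonic bases, went from 1034 to 46 counts in A549, and its part in the WIPI1 value was not tested. The paralog WIPI2, the lipid reader that recruits ATG16L1, was above 0 in each line (1.41, 0.61 and 0.35), but at -0.058 in H1975 by library totals. Of the lipid-transfer proteins, ATG2A was 2-fold higher in HCC827 only (-0.30, 1.58 and -0.27), and ATG2B (-0.37, 0.34 and -0.76) and the scramblase VMP1 (-0.74, -0.24 and -0.36) stayed within 2-fold in every line.

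Among the conjugation enzymes and proteases, 7 of 10 genes were above 0 over the lines, with a median of 0.99. Higher by 2-fold or more were 6 of 10 in A549 (ATG3, ATG5, ATG12, ATG16L1, ATG4A and ATG4D), 2 of 10 in HCC827 (ATG12 and ATG4D) and 1 of 9 considered in H1975 (ATG3). Of all genes, 30.0%, 10.7% and 15.4% were higher in these lines, so H1975 (11.1%) lay below that share. ATG3 (ENSG00000144848, chromosome 3, 112532509 to 112562046, minus strand), the E2-like enzyme that passes ATG8 proteins to lipid, was at 43.4 and 476 CPM in A549, 47.1 and 85.1 in HCC827, and 53.7 and 133 in H1975. The AL-X values lay above all DMSO values, and the log2 folds were 3.45 (interval 3.41 to 3.50), 0.85 (0.81 to 0.90) and 1.31 (1.27 to 1.35), or 1.84 over the lines (SE 0.62, edgeR adjusted p = 0.211). ATG10 (ENSG00000152348, chromosome 5, 81972025 to 82276857, plus strand), the E2-like enzyme for ATG12, had the lowest fold of the group. It stood at 10.5 and 3.34 CPM in A549, 7.70 and 6.86 in HCC827, and 5.79 and 4.80 in H1975, and its fold was -0.69 over the lines (SE 0.72, adjusted p = 0.645). RPS23, on the opposite strand over 6.86% of its exonic bases, had 21170 to 55848 counts against 225 to 1278 for ATG10, and its part in the ATG10 value was not tested. So the E2-like enzymes of the cascade stood at the opposite ends of the group.

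The complex that ATG12, ATG5 and ATG16L1 form acts as the E3-like ligase for ATG8 proteins, and its parts were above 0 in all 3 lines. ATG12 was 2.02, 1.34 and 0.77 in A549, HCC827 and H1975, ATG5 2.32, 0.65 and 0.80, and ATG16L1 1.73, 0.92 and 0.55. The shared E1-like enzyme ATG7 stayed within 2-fold in each line (-0.56, 0.14 and -0.08). The ATG4 proteases, which prepare ATG8 proteins and strip them from membranes, differed from each other. ATG4D was 2.05, 1.23 and 0.66 and ATG4A 1.99, 0.13 and 0.66, while ATG4B, at 0.07, 0.79 and 0.50, and ATG4C, at -0.85, 0.16 and -0.18, were within 2-fold in every line.

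The ATG8 family had the highest median of the 7 roles, 1.61, with 5 of 5 genes above 0 over the lines. By line, 5 of 5 were at least 2-fold higher in A549, 2 of 4 considered in HCC827 and 1 of 4 in H1975. The shares of all genes were 30.0%, 10.7% and 15.4%. MAP1LC3B (ENSG00000140941, chromosome 16, 87383995 to 87404779, plus strand) encodes LC3B, the protein whose lipid-bound form is the usual marker of autophagosomes. It stood at 46.5 CPM with DMSO and 1278 with AL-X in A549, at 40.7 and 326 in HCC827, and at 58.3 and 233 in H1975. Untreated levels were within a factor of 1.43 of each other, and every AL-X library lay above every DMSO library. The log2 folds were 4.78 (interval 4.74 to 4.82), 3.00 (2.96 to 3.04) and 2.00 (1.96 to 2.04), or 3.24 over the lines (SE 0.73, edgeR adjusted p = 0.100). The near-identical copy MAP1LC3B2, whose reads may be shared with it, went from 2.6 to 35.6, from 2.82 to 7.01 and from 2.2 to 5.58 CPM. FBXO31, on the opposite strand over 2.82% of the MAP1LC3B exonic bases, went from 3780 to 4290, from 5102 to 7927 and from 4059 to 7437 counts, and its part in the MAP1LC3B value was not tested.

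GABARAP (ENSG00000170296, chromosome 17, 7240014 to 7242770, minus strand), founder of the other ATG8 branch, had the lowest fold of the family. It stood at 99.6 and 420 CPM in A549, 107 and 109 in HCC827, and 71.4 and 92.7 in H1975, so only the AL-X library of A549 stood apart, and its fold over the lines was 0.80 (SE 0.57, edgeR adjusted p = 0.50). GABARAPL1 was at 25.3 and 185 CPM in A549, 24.4 and 79.1 in HCC827, and 8.17 and 9.68 in H1975. Its order of folds, 2.87, 1.70 and 0.24, was that of MAP1LC3B over the 3 lines, and also that of ATG12, ATG16L1 and ATG4D among others. By library totals the GABARAPL1 folds in A549 and HCC827 were nearly equal, 1.87 and 1.83. GABARAPL2 was 1.94, 0.70 and 0.98. MAP1LC3A was hardly present outside A549, where it went from 2.55 to 21.7 CPM. It stood at 0 and 14 counts in HCC827, at least 5.51-fold higher against a floor of 3 counts, and at 84 and 86 counts in H1975.

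The makeup of the family differed between treatments in the same direction in the 3 lines, as the plot of ATG8 shares shows. MAP1LC3B took 23.8% of the counts of the 5 genes with DMSO and 64.3% with AL-X in A549, 21.0 and 59.4% in HCC827, and 35.4 and 60.1% in H1975. GABARAP went the other way, from 50.9 to 21.1%, from 55.4 to 19.8% and from 43.4 to 23.9%. GABARAP thus held the largest share of counts in all 3 DMSO libraries and MAP1LC3B in all 3 AL-X libraries. These are shares of counts, not of transcripts, since MAP1LC3B has 5313 exonic bases and GABARAP 2266. Per kilobase of exonic length the AL-X levels lay closer. MAP1LC3B and GABARAP stood at 240 and 185 CPM per kb in A549, 61.3 and 48.0 in HCC827, and 43.8 and 40.9 in H1975. Since the MAP1LC3B and GABARAP shares come from the same library, they do not depend on the scaling. The widest exact binomial 95% interval among these shares was that of GABARAP in H1975 with DMSO, 42.7 to 44.1%.

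**Figure D2:**
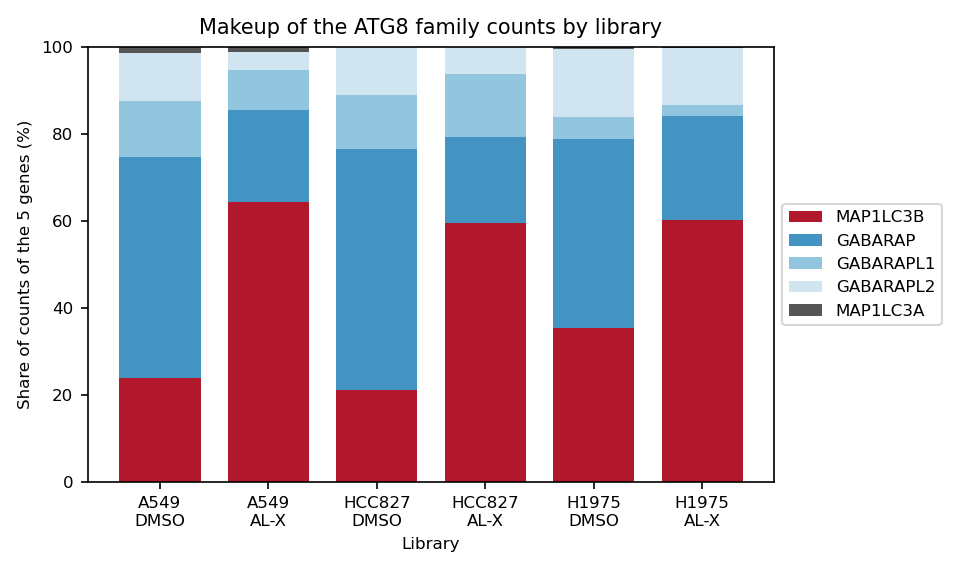
Share (%) of the counts of the 5 ATG8 genes taken by each gene, with no adjustment for gene length, 1 stacked bar per library. MAP1LC3B, in red at the base, takes 21.0 to 35.4% in the DMSO libraries and 59.4 to 64.3% in the AL-X libraries.

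Of the cargo receptors, 4 of 5 genes were above 0 over the lines, with a median of 0.63. SQSTM1 (ENSG00000161011, chromosome 5, 179806398 to 179838078, plus strand), which encodes p62, stood at 1678 and 2923 CPM in A549, 370 and 2418 in HCC827, and 529 and 875 in H1975. A549 with DMSO was already above H1975 with AL-X, so the groups overlapped. The log2 fold was 2.71 (interval 2.69 to 2.72) in HCC827 and 0.80 and 0.72 in A549 and H1975, or 1.39 over the lines (SE 0.79, edgeR adjusted p = 0.407). As a share of the counts of the 5 receptors it went from 43.6 to 74.6% in HCC827, from 48.4 to 56.9% in H1975 and from 81.4 to 79.2% in A549. On the other strand, MRNIP overlaps 20.7% of its exonic bases, at 468 to 3758 counts, and MGAT4B 1.37%, at 20025 to 35489 counts, against 54592 to 301745 for SQSTM1.

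NBR1 (ENSG00000188554, chromosome 17, 43170481 to 43211689, plus strand), a receptor with the same domain plan as p62, was the receptor with the lowest fold. It stood at 126 and 92.9 CPM in A549, 164 and 227 in HCC827, and 145 and 78.1 in H1975, a fold of -0.29 over the lines (SE 0.51, edgeR adjusted p = 0.792). It was higher with AL-X in HCC827 only. TAX1BP1, a receptor for protein aggregates and bacteria, was at 150 and 495 CPM in A549, 248 and 494 in HCC827, and 296 and 450 in H1975. By TMM its 3 AL-X values were within a factor of 1.10 of each other, closer than the DMSO values at 1.98. Its AL-X counts were 33355 in A549 and 61672 in HCC827, the smaller library, so by library totals these values lay further apart. OPTN, a receptor in mitophagy, was at 0.95, 1.00 and -0.07 log2 units, and CALCOCO2 (NDP52), a receptor for bacteria and mitochondria, at 0.55, 0.48 and 0.27.

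The 2 inducible modulators stood above DMSO in HCC827 and below it in A549 and H1975. TP53INP2 (ENSG00000078804, chromosome 20, 34704290 to 34713439, plus strand), which binds ATG8 proteins and takes part in autophagosome formation, was at 20.5 and 18.2 CPM in A549, 14.03 and 69.7 in HCC827, and 27.6 and 18.7 in H1975. Only HCC827 was higher, by 2.31 log2 units (interval 2.24 to 2.38), and the fold over the lines was 0.47 (SE 0.66, edgeR adjusted p = 0.732), or -0.028 by library totals. DEPP1 (ENSG00000165507, chromosome 10, 44970981 to 44978810, minus strand), a FOXO target that affects autophagy, was at 2.77 and 0.85 CPM in A549, 9.58 and 12.5 in HCC827, and 22.6 and 1.61 in H1975. Its log2 fold in H1975 was -3.80 (interval -4.05 to -3.59), the lowest of the 40 genes in any line, and its fold over the lines was -1.71 (SE 0.93, adjusted p = 0.391). RASSF4, on the opposite strand over 23.3% of its exonic bases, went from 944 to 12, 1725 to 215 and 826 to 217 counts, and its part in the DEPP1 value was not tested.

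**Figure D3:**
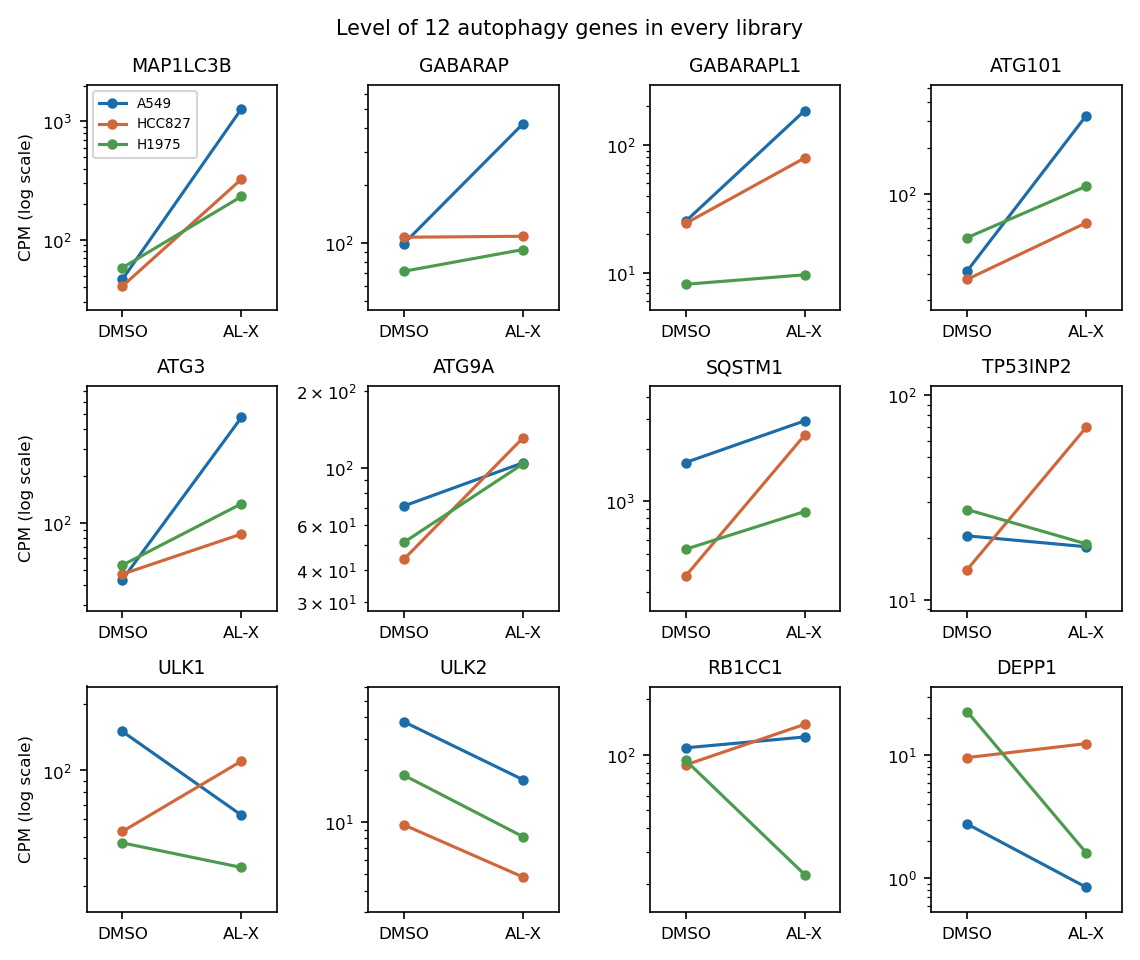
Level (CPM, log axis, different range in each panel) of 12 of the 40 genes in the 6 libraries, 1 line per cell line joining DMSO to AL-X. MAP1LC3B is higher with AL-X in all 3 lines, at 233 to 1278 CPM, ULK1 is lower in A549 and higher in HCC827, and RB1CC1 and DEPP1 are at 22.5 and 1.61 CPM in H1975 with AL-X.

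The response of each line was also set against the mean response of the remaining lines, as an interaction in the edgeR model, which leaves 1 residual degree of freedom. This test called 0 of 40 autophagy genes for A549 (0.28% of all genes), 0 for HCC827 (0.261%) and 0 for H1975 (0.0%). The lowest adjusted p was 0.305 for A549, 0.522 for HCC827 and 1 for H1975, and 4, 2 and 0 of the 40 genes had an unadjusted p under 0.05, against 11.0%, 8.19% and 1.16% of all genes. For ULK1 the adjusted p was 0.524 for A549 and 0.667 for HCC827. The contrasts between lines described above are differences between single libraries. Leaving out a line moved the fold over the lines by more than 1.5 times for 11 of the 15 genes given full values here. Without A549 it was 1.23 for ATG101, 1.13 for ATG3, 0.57 for ATG14, 0.24 for GABARAP, -0.17 for ATG10 and -0.19 for WIPI1. Without HCC827 it was 0.72 for SQSTM1, -1.58 for WIPI1 and -2.81 for DEPP1, and without H1975 1.78 for ATG14 and -0.66 for DEPP1. ULK1, NBR1 and TP53INP2 had the other sign with a line left out. MAP1LC3B, ULK2, PIK3R4 and ATG9A stayed within 1.5 times.

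Scaling decided how many genes counted as lower in A549 and H1975. By library totals 10 were higher and 13 lower in A549, against 12.6% and 51.9% of all genes, with a median of -0.43 beside -1.01 over all genes. All 10 were among the 15 higher by TMM: ATG101, ATG3, ATG5, ATG12, ATG4D, ATG14, MAP1LC3A, MAP1LC3B, GABARAP and GABARAPL1. In HCC827, 14 were higher and 0 lower, against 13.8% and 15.1%, with all 12 of the TMM calls among them. In H1975, 1 was higher, MAP1LC3B, and 7 were lower, against 6.91% and 28.2%, with a median of -0.15 beside -0.34. By totals SQSTM1 was at -0.20 in A549, and GABARAP at -0.033 and GABARAPL1 at -0.16 in H1975. The 10 genes higher in all 3 lines by totals were ATG101, ATG3, ATG5, ATG12, ATG16L1, ATG4A, ATG4D, MAP1LC3B, GABARAPL2 and TAX1BP1, and MAP1LC3B was the only gene at least 2-fold higher in all 3 lines by both scalings.

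**Figure D4:**
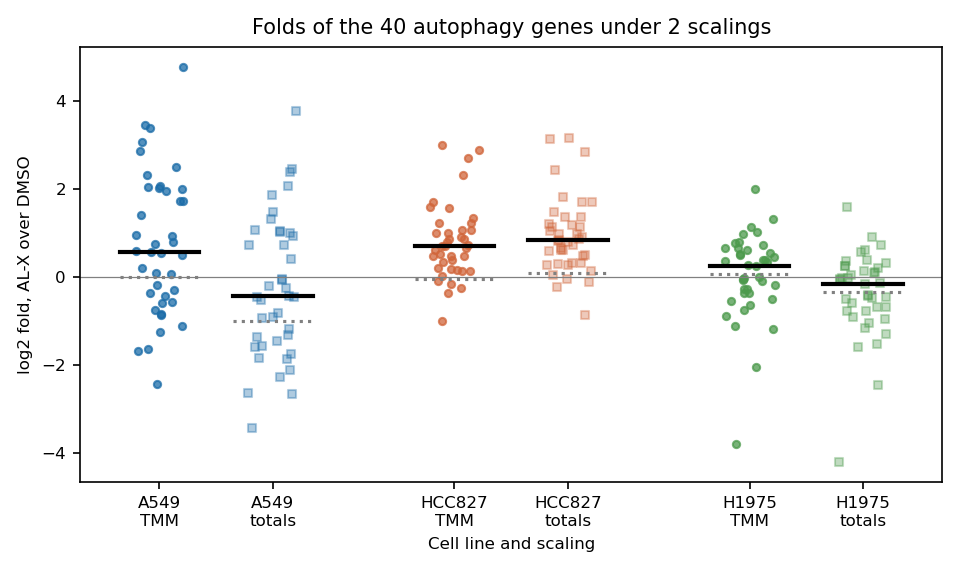
Log2 fold of the 40 genes in each line by TMM (circles) and by library totals (squares); the black bar is the median of the genes considered and the dotted line that of all genes. Each black bar lies above its dotted line, and in A549 both lie about 1.00 lower by totals.

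Levels between genes were compared per kilobase of exonic length (all annotated exons merged). SQSTM1 ranked 1 in all 6 libraries, from 48.4 CPM per kb in HCC827 with DMSO to 382 in A549 with AL-X. MAP1LC3B ranked 13, 15 and 11 with DMSO in A549, HCC827 and H1975 and 2, 2 and 3 with AL-X, at 240, 61.3 and 43.8 CPM per kb. GABARAP was among the highest 4 throughout, and ATG10, ULK2, DEPP1 and MAP1LC3A were among the lowest 4 in H1975 with AL-X. Of the 37 genes considered in every line, 27 (73.0%) were within 2-fold over the lines with DMSO, with a median ratio of highest to lowest of 1.601, and 12 (32.4%) with AL-X, with a median of 2.32. Of all 10210 such genes, 6554 (64.2%) were within 2-fold with DMSO and 2251 with AL-X, with medians of 1.73 and 3.24, so the spread was wider with AL-X over all genes too. RB1CC1 had a ratio of 1.24 with DMSO and 6.46 with AL-X, and ATG3 1.24 and 5.60. By TMM, WIPI2 went the other way, from 1.91 to 1.11. Its AL-X counts were 10893 in A549 and 18143 in HCC827, the smaller library, so by library totals its AL-X values lay further apart.

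All 40 genes together held 0.418% of all counts in A549 with DMSO and 0.462% with AL-X, 0.273 and 0.748% in HCC827, and 0.334 and 0.323% in H1975. SQSTM1 alone made up 15.8% of these counts in HCC827 with DMSO and 41.1% with AL-X. Exonic length moved with the folds. Spearman's rho between length and log2 fold for A549, HCC827 and H1975 was -0.37, -0.21 and -0.34 across 37 protein-coding members, beside -0.35, -0.06 and -0.38 across 9677 protein-coding genes. Genes are not independent replicates, and these values share the libraries.

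The genes that surround the machinery were counted in 6 further lists. SESN2, a stress-induced inhibitor of mTORC1, was the 1 gene called of 29 in the mTORC1, AMPK and nutrient-sensing list, against 0.256% of all genes. It stood at 7.44 and 162 CPM in A549, 9.66 and 41.7 in HCC827, and 14.6 and 177 in H1975, and rose by 3.40 (SE 0.59, edgeR adjusted p = 0.0419). The list's median was 0.61, with the GTPase RRAGC at 1.67 and, at the low end, the AMPK subunit PRKAA2 and the mTOR inhibitor DEPTOR at -1.58 each. At an unadjusted p under 0.05 by edgeR, 6 of the 29 were higher and 1 lower, against 5.48% and 10.2% of all genes. Of 14 transcription factors known to act on autophagy genes, 1 was called, against the same 0.256% of all genes. This was DDIT3 (CHOP), which rose by 5.18 (SE 0.78, edgeR adjusted p = 0.0237). The median was 0.22, and at an unadjusted p under 0.05, 4 of the 14 were higher and 1 lower. ATF4 was at 1.68, with 3.37 in A549 and 1.93 in H1975 but -0.37 in HCC827, TFE3 at 1.5 and TFEB at -0.16, while the autophagy repressor ZKSCAN3 at -2.79 and MITF at -1.18 had the lowest folds, and none of these passed. The SESN2 and DDIT3 calls were lost by library totals (adjusted p = 0.161 and 0.0938), without a filter (0.249 and 0.176) and without the line as a block (0.569 for both), and SESN2 also with mitochondrial genes left out (0.066) and without H1975 (0.070). TFE3 and TFEB are named although not at either end of the list, and were picked after their values were seen.

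In the other 4 lists, 0 genes were called by edgeR. Of all genes, 5.48% were higher and 10.2% lower at an unadjusted p under 0.05. The 26 lysosomal genes had the highest median, 0.64, with 7 higher at an unadjusted p under 0.05 and 0 lower. MCOLN1, the lysosomal calcium channel, was at 11.5 and 78.4 CPM in A549, 15.1 and 107 in HCC827, and 15.6 and 61.3 in H1975, a fold of 2.52 (SE 0.49, adjusted p = 0.065). The hydrolase GLA was at 2.64, the protease CTSS at -0.86 and the membrane protein SCARB2 at -0.18. The 13 genes of autophagosome-lysosome fusion had a median of 0.34, with 2 higher and 0 lower at an unadjusted p under 0.05. The GTPase RAB7A was at 1.47 and the SNARE YKT6 at 1.32, against -1.24 for the SNARE STX17 and -0.25 for the tethering subunit VPS33A. The 15 receptors for organelles and ferritin had a median of 0.12, with 0 below an unadjusted p of 0.05. The ferritin receptor NCOA4 was at 1.27 and TOLLIP at 0.66, and the endoplasmic reticulum receptors RETREG1 and CALCOCO1 were at -0.96 and -0.68. The 12 other autophagosome genes had a median of -0.18, with 2 higher and 2 lower at an unadjusted p under 0.05. MAP1LC3B2 was at 2.10 and the lipid reader WDR45B at 1.62, and ATG16L2 at -2.34 and MAP1LC3C at -3.16 were the lowest. MAP1LC3C in A549 and PRKAA2 in H1975 were at 0 counts with AL-X, and ZKSCAN3 and RETREG1 at 0 in both HCC827 libraries, so the folds of these genes rest on the other libraries and on how the fit treats a 0.

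**Figure D5:**
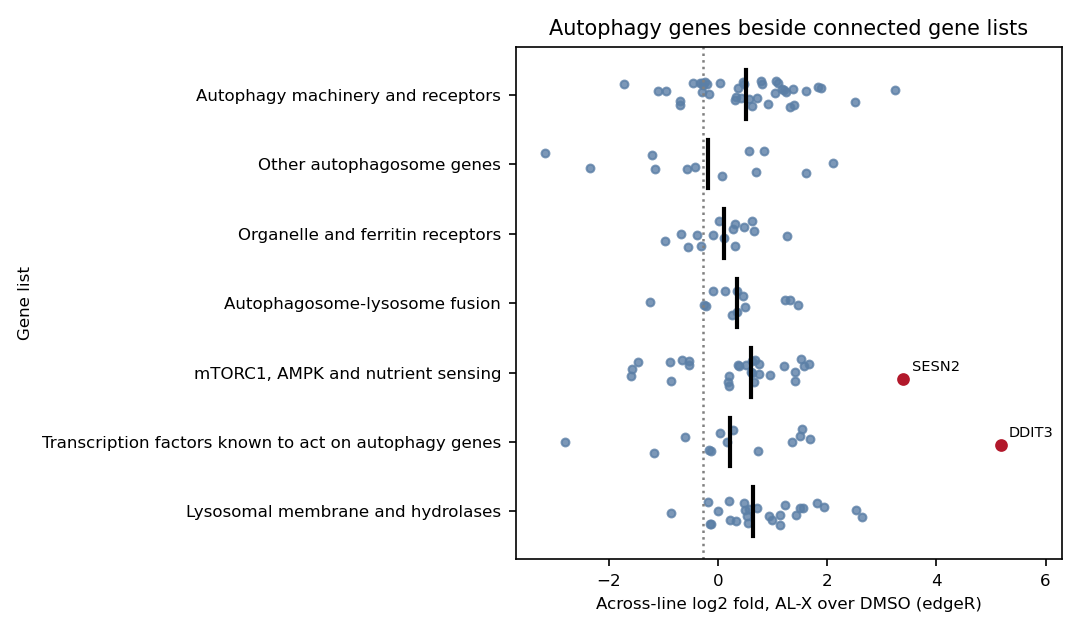
Log2 fold over the 3 lines (edgeR) of each gene in the 40-gene set and in the 6 further lists; black bars are list medians and the dotted line is the median of all genes, -0.27. Only SESN2 at 3.40 and DDIT3 at 5.18, in red, passed the adjusted p of 0.05.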

How the data were processed

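The table the authors deposited holds raw read counts, whole numbers by Ensembl gene, for the 6 libraries. RNA came from a Trizol extraction and was built into libraries with the SureSelect XT HS2 mRNA kit, per the labels' protocols. The submitters' processing notes name bcl2fastq 2.20 and GRCh38. Not given in the sources used here: aligner, counter, annotation release, strandedness, and whether molecular barcodes were used. Counts of overlapping genes therefore cannot be told apart, which touches 23 of the 40 genes, and positions and lengths are those of GENCODE release 29.

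The test across lines was edgeR 4.0.16 in R 4.3.3 (TMM, filterByExpr, robust quasi-likelihood, Benjamini-Hochberg at 0.05, 2 residual degrees of freedom). It was also run on simulated counts in which a changed gene had the same fold in all 3 lines. The folds here differ between lines, so no conclusion is drawn from that run. Libraries were paired by the cell line tag of the labels, and the line was the block. The p-values therefore reflect the spread between lines, not between cultures. Within a line, log2 ratios used a prior count of 2. Alternatives were DESeq2 1.42.0, limma-voom 3.58.1 and other scalings and filters. Genes named with full values were those called, those at least 2-fold different in all 3 lines or in opposite directions, and the highest and lowest of each role or list (of the lists, the 2 highest and 2 lowest); others are given to account for every gene. The members and lists were chosen with earlier results of these data known.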

Additional observations from a re-analysis of the deposited data

Results flagged for a closer look

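ULK1 differed by more than 2-fold in opposite directions in a pair of lines, with a log2 fold of -1.26 in A549 and 1.06 in HCC827. Each value is the ratio of 2 single libraries. The interaction test of edgeR, a related contrast of a line with the mean of the others, gave an adjusted p of 0.524 for A549 and 0.667 for HCC827.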

How the results depend on the processing

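The count of autophagy genes called was 0 with edgeR, 3 with DESeq2 and 2 with limma-voom, and 0 to 1 with a line left out. Of all genes, 52 were called as reported, 0 by library totals (2792 at an unadjusted p under 0.05), 0 without a filter (3352), 12 with mitochondrial genes left out, 1986 with DESeq2, 661 with limma-voom and 106 to 184 with a line left out. Without the block that pairs libraries by line, 0 of all genes (1722 at an unadjusted p under 0.05) and 0 of 40 autophagy genes were called, with a lowest adjusted p of 0.569. The median log2 fold of the 40 genes over the lines was 0.086 by totals and 0.39 to 0.77 with a line left out, the highest without H1975. Within lines, totals gave 13 genes lower and a median of -0.43 in A549, and 1 higher, 7 lower and a median of -0.15 in H1975. A prior count of 0.5 gave 1 gene lower in HCC827, ULK2. With a line left out, the fold of ULK1 ran from -0.86 to 0.39 (reversed without A549), that of NBR1 from -0.71 to 0.013 (reversed without H1975) and that of TP53INP2 from -0.41 (reversed without HCC827) to 1.07. TP53INP2 was also reversed by totals (-0.028). The cause of these moves was not tested. The test across lines rests on 2 residual degrees of freedom, and depth limits mainly MAP1LC3A in HCC827, with 0 and 14 counts.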
